A study of Mus musculus with 16 samples.

Results

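The 10 genes described here encode chemokines that attract T cells and monocytes: Cxcl9, Cxcl10, Ccl2, Ccl5, Ccl7, Ccl8, Ccl12, Cxcl16, Cx3cl1 and Cxcl12. They are a set fixed by gene symbol, 10 of the 45777 genes listed. All 10 were among the 16209 genes with a count above 0 in every tumor, which entered the tests. B16F10 melanoma cells, which come from the C57BL/6 strain, had been grown under the skin of mice injected at 6 weeks of age, and RNA of whole tumors was sequenced. The 4 groups held 4 tumors each: lean C57BL/6J hosts before therapy, lean hosts after ETS (etoposide, a drug that poisons topoisomerase and so breaks DNA), leptin-deficient C57BL/6J-ob/ob hosts before therapy, and such obese hosts after ETS. ETS had been given intraperitoneally as 5 daily injections of 20 mg per kg once tumors reached about 100 mm3. Whether mice before therapy received a vehicle is not stated, nor is when their tumors were taken relative to the treated ones. The drug and the days of growth cannot be told apart. The ob/ob hosts lack leptin in all of their tissues from birth, whereas the injected melanoma cells came from a strain with intact leptin. Leptin mRNA is still made from the ob allele, so the Lep counts (0 to 18 in lean tumors before therapy, 0 after ETS, 6 to 537 in obese tumors before therapy and 8 to 408 after ETS) do not test the genotype.

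Total counts ranged from 47199949 to 61655287 per tumor. The melanocyte genes Dct, Mitf, Mlana, Pmel, Sox10, Tyr and Tyrp1 summed to 17276 to 21240 TPM in lean and 8843 to 12900 TPM in obese tumors before therapy. After ETS the sums were 15618 to 18680 and 9061 to 17562 TPM. TPM is a level per transcript length, scaled to the same total in each tumor. Before therapy 3 of these 7 genes, Mlana, Pmel and Tyrp1, were called lower in obese tumors, by -0.75, -1.01 and -0.71 on the log2 scale (edgeR adjusted p = 0.00944, 0.0241 and 0.0112), beside the lower chemokines there. The part of tumor cell content in that difference was not tested. Skeletal muscle markers exceeded 100 summed TPM in 4 tumors, which were 1 lean tumor before therapy, 2 lean tumors after ETS and 1 obese tumor after ETS. Levels of a gene are given below as CPM, which are read counts relative to the tumor's total after edgeR's TMM scaling, in the order of tumors 1 to 4 of a group. Changes are log2 fold changes from edgeR's quasi-likelihood test with the standard error, and a gene was called at an adjusted p (Benjamini-Hochberg over the 16209 genes) under 0.05.

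Chemokines are small secreted proteins that guide leukocytes along a gradient through G protein-coupled receptors. CXCL9 and CXCL10 are typical products of cells exposed to interferon gamma and bind CXCR3 on activated T cells and NK cells. CCL2, CCL7 and CCL12 draw monocytes out of the blood through CCR2, CCL5 acts through CCR1 and other receptors, CXCL16 and CX3CL1 are made as membrane-anchored proteins that bind CXCR6 and CX3CR1, and CXCL12 is made by stromal cells and binds CXCR4.

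The genes lie in clusters. Cxcl9 (gene ID 17329, chr5:92321331-92328079, minus strand, build GRCm38.p6) and Cxcl10 (15945, chr5:92346638-92348889, minus strand) are neighbours on chromosome 5 with 18.6 kb between them and no coding gene that fits wholly in the gap. On the plus strand of chromosome 11 stand Ccl2 (20296, chr11:82035577-82037452), Ccl7 (20306, chr11:82045712-82047525), Ccl12 (20293, chr11:82101845-82103399) and Ccl8 (20307, chr11:82115185-82116799). The gaps along this row are 8.26, 54.3 and 11.8 kb. Ccl5 (20304, chr11:83525778-83530518, minus strand) and Cxcl16 (66102, chr11:70454389-70459984, minus strand) lie elsewhere on chromosome 11, Cxcl12 (20315, chr6:117168535-117181368) on chromosome 6 and Cx3cl1 (20312, chr8:94772180-94782427) on chromosome 8. Cxcl10 lies inside the span of Art3 on the opposite strand and shares 0 of its 1520 exonic bases with Art3 exons, whereas Cxcl16 shares 552 of 2699 exonic bases with Zmynd15 on the opposite strand. Ccl5 and Cx3cl1 overlap the predicted genes Gm32650 and Gm51543.

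RefSeq promoters of build GRCm38.p6, which run from 250 bases before to 50 bases after the start site, were at hand for 6 of the 10 genes. Cxcl10 alone of the 6 held interferon or kappa-B matches, and Ccl12 and Ccl8 shared the place of a TATA box. The promoters of the neighbouring pairs, Cxcl9 with Cxcl10 and Ccl12 with Ccl8, are therefore shown. They are printed 5′ to 3′ on the gene's own strand, and capitals mark matches on either strand to GAAANNGAAA (the interferon-stimulated response element), TTCNNNGAA (the gamma-activated site), the kappa-B consensus or TATAAA.
Cxcl9 (chr5:92328030-92328329, minus strand): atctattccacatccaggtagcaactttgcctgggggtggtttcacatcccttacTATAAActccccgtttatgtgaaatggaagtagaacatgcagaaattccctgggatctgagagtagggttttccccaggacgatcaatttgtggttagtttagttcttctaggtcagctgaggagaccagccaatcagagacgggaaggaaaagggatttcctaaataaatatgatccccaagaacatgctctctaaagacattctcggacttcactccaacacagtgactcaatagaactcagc
Cxcl10 (chr5:92348840-92349139, minus strand): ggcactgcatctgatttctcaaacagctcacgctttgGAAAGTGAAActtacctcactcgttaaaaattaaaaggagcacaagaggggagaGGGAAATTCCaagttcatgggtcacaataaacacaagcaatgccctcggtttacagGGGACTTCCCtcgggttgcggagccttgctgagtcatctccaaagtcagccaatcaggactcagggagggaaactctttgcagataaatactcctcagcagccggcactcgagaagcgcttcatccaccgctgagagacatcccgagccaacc
Ccl12 (chr11:82101595-82101894, plus strand): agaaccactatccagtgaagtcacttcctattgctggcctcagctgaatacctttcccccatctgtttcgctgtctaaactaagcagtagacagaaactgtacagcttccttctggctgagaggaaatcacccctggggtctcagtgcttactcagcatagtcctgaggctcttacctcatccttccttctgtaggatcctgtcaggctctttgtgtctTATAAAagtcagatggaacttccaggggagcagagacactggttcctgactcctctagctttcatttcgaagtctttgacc
Ccl8 (chr11:82114935-82115234, plus strand): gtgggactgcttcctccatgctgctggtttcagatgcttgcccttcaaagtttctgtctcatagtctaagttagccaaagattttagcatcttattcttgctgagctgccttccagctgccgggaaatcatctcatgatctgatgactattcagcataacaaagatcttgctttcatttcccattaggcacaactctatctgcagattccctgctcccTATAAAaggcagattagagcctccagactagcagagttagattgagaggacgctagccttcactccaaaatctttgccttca
The Cxcl10 window held 1 match to GAAANNGAAA, from 213 to 204 bases before the start site, and 2 matches to the kappa-B consensus, from 159 to 150 and from 103 to 94 bases before it. Among the 32851 promoters of this length, 3.44% held the first motif and 4.51% the second. The windows of Cxcl9, Ccl12, Ccl8, Cx3cl1 and Cxcl12 held neither, and no window of the 6 genes held TTCNNNGAA, which 8.30% of all promoters had. TATAAA, which 13.6% of all promoters held, stood 31 to 26 bases before the start site in Ccl12 and 32 to 27 bases before it in Ccl8. In Cxcl9 the match to TATAAA was farther away, at 195 to 190 bases before the start, and in Cx3cl1 it stood 6 to 1 bases before it. A missing match says only that these letters do not occur in the window.

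Ccl2, Ccl7, Cxcl16 and Cx3cl1 fell in lean tumors after ETS and rose in obese tumors after ETS, whereas the other 6 were called in at most 1 host. Of the 16 fits with a tumor left out, 9 lost the Cx3cl1 call in lean tumors and 6 the Cxcl16 call in obese tumors. Ccl2 and Ccl7 kept both calls in each of these fits. In lean tumors after ETS, 6 of the 10 fell (Cxcl9, Cxcl10, Ccl2, Ccl7, Cxcl16 and Cx3cl1), none rose and 4 were not called, where 22.8% of all tested genes were called lower and 21.0% higher. In obese tumors after ETS, 8 of the 10 rose (Ccl2, Ccl5, Ccl7, Ccl8, Ccl12, Cxcl16, Cx3cl1 and Cxcl12), none fell and Cxcl9 and Cxcl10 were not called, where 21.2% of all tested genes were called higher and 19.0% lower. The median log2 fold change of the 10 was -1.64 in lean tumors and 2.43 in obese tumors, against -0.015 and 0.0066 over all tested genes. In RNA of whole tumors, fewer cells of a type and less RNA per cell cannot be told apart. Tested as an interaction, the ETS effect was lower in lean than in obese tumors for 10 of 10 chemokines, where 10.1% of all tested genes were called lower and 6.35% higher. These differences ranged from -2.40 for Cx3cl1 to -7.46 for Cxcl9 on the log2 scale, with a median of -3.99 against 0.052 over all genes.

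**Figure D1:**
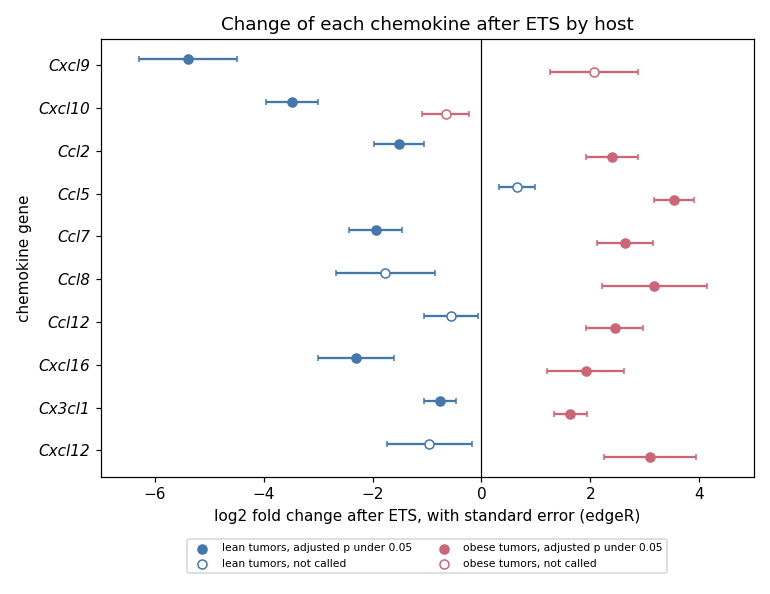
Log2 fold change after ETS (x axis, with the standard error as bars) of each chemokine (y axis) in lean and obese tumors, n = 4 tumors per group, with filled points where the chemokine was called. Of the lean values, 9 lie below 0, and 9 of the obese values lie above 0.

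The hosts had already differed before therapy. Obese tumors held less mRNA of 8 of the 10 chemokines than lean tumors (Cxcl9, Cxcl10, Ccl2, Ccl5, Ccl7, Ccl12, Cxcl16 and Cx3cl1), and Ccl8 and Cxcl12 were not called, where 12.9% of all tested genes were called lower and 13.5% higher. The median log2 difference of the 10 was -2.50 against 0.019 over all genes. This comparison and those of the ETS effects share the tumors before therapy, so they are not independent of each other. After ETS, edgeR's test called none of the 10 between obese and lean tumors, where 3.28% of all tested genes were called higher and 2.30% lower in obese tumors. DESeq2 and edgeR's exact test each called 3 of the 10 there (Ccl2, Ccl7 and Ccl12), all higher in obese tumors. Over all genes these 2 tests called 2078 and 1564, against 904 in edgeR's quasi-likelihood test. The median log2 difference after ETS was 1.44 against 0.0016 over all genes.

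**Figure D2:**
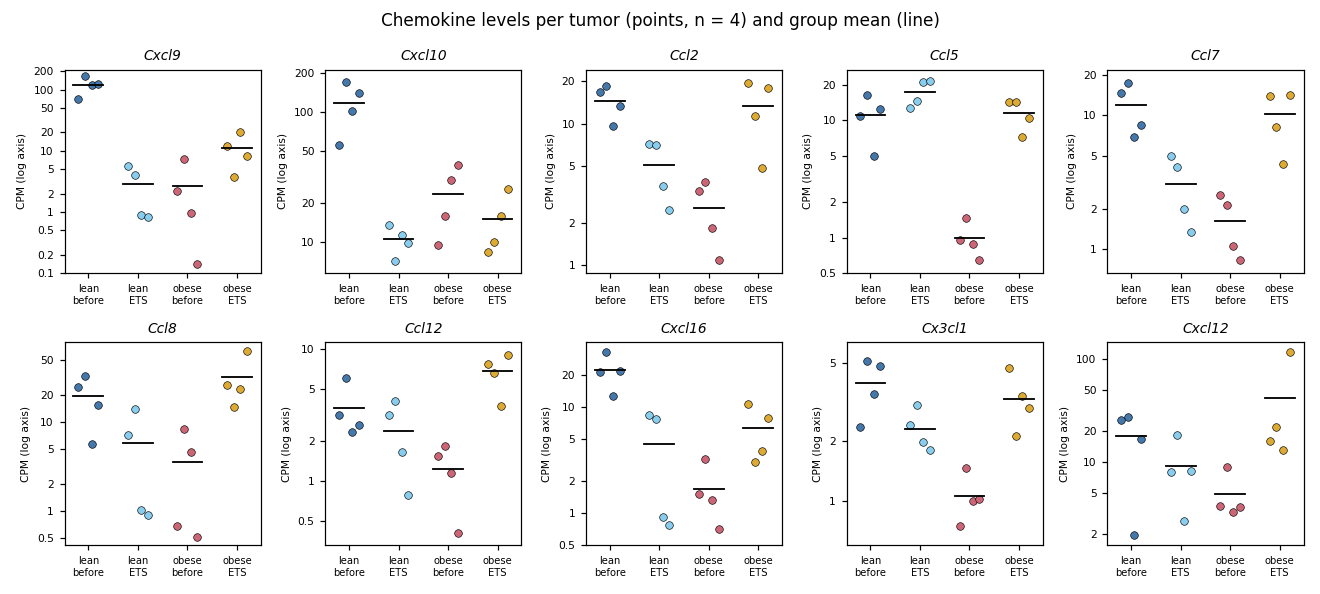
CPM (log axis) of each chemokine in the 4 groups, with a point per tumor and a line at the group mean (n = 4). The 4 lean tumors before therapy lie above all other tumors for Cxcl9, Cxcl10 and Cxcl16, and the 4 obese tumors before therapy lie below all other tumors for Ccl5.

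The 2 CXCR3 ligands had the highest mean TPM of the 10 in lean tumors before therapy, and both fell there after ETS. Cxcl9 was at 70.3, 169, 119.6 and 122 CPM in the 4 lean tumors before therapy and at 5.67, 4.06, 0.895 and 0.8404 CPM after ETS. Every treated lean tumor lay below every untreated one, and the fall was 42.1-fold (log2 fold change -5.40, standard error 0.90, adjusted p = 0.000322). In obese tumors Cxcl9 was at 2.21, 7.36, 0.971 and 0.141 CPM before therapy, which was lower than in lean tumors (log2 fold change -5.51, standard error 0.91, adjusted p = 0.000454), and the groups did not overlap. The counts behind these obese values were 107, 369, 58 and 8, so that of tumor 4 was near the floor. Obese tumors after ETS were at 12.1, 3.67, 20.2 and 8.23 CPM and overlapped those before therapy, with a log2 fold change of 2.07 (95% interval 0.36 to 3.78, adjusted p = 0.0517). That value stood at the threshold: the adjusted p ranged from 0.00664 to 0.1404 over the alternative analyses, with 0.0463 in DESeq2 and 0.140 without obese tumor 3 after ETS, and it was called without lean tumor 1 or 4 after ETS, obese tumor 2 before therapy or obese tumor 2 after ETS. None of the treated obese tumors reached the lowest untreated lean tumor.

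Cxcl10 was at 56.1, 170.5, 103 and 141 CPM in lean tumors before therapy and at 13.6, 7.21, 11.4 and 9.94 CPM after ETS, again with no overlap (log2 fold change -3.48, standard error 0.47, adjusted p = 6.65e-05). Obese tumors had 9.59, 15.9, 30.2 and 39.1 CPM before therapy, below all lean tumors (log2 fold change -2.31, standard error 0.45, adjusted p = 0.00157). After ETS the obese tumors were at 8.41, 10.05, 15.9 and 25.6 CPM, and Cxcl10 was the only chemokine of the 10 whose value in obese tumors was below 0, at a log2 fold change of -0.66 (95% interval -1.58 to 0.26, adjusted p = 0.239). In obese tumors the log2 ratio of Cxcl9 to Cxcl10 TPM was -5.50 ± 3.19 before therapy and -1.95 ± 1.15 after ETS (SD, n = 4 each). Obese tumor 4 before therapy, with a Cxcl9 count of 8, was at -9.61. With an exact two-sided permutation p = 0.0857, a difference in course between these chromosomal neighbours was not shown. In lean tumors this ratio was -1.32 ± 0.24 before therapy and -3.74 ± 1.503 after ETS, with an exact permutation p = 0.0286, the smallest that 4 against 4 tumors allow, and an adjusted p = 0.0571 over 20 such tests.

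Cxcl10 reads stand inside Art3, which encodes an ADP-ribosyltransferase family member, and outside the lean tumors before therapy the counts of both genes were of like size. Art3 had counts of 347, 596, 398 and 582 in lean tumors before therapy, where Cxcl10 was 9.74 to 18.6 times as high. In obese tumors Art3 had 609, 1016, 2150 and 1473 counts before therapy and 524, 558, 1361 and 816 after ETS, beside Cxcl10 counts of 464, 798, 1801 and 2216 and 464, 488, 999 and 1462. Over the 12 tumors of the other groups, the ratio of Cxcl10 to Art3 counts ranged from 0.734 to 1.88. The kit kept the strand, but whether the counting used it is not stated, and the part of Art3 reads in the low Cxcl10 values was not tested.

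**Figure D3:**
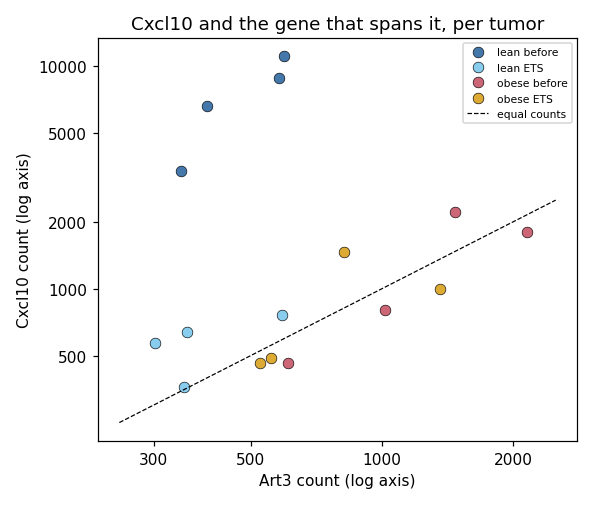
Count of Cxcl10 (y axis, log) against the count of Art3, the gene whose span holds it on the other strand (x axis, log), with a point per tumor of the 4 groups and a dashed line at equal counts. The 4 lean tumors before therapy stand far above the line, at 9.74 to 18.6 times the Art3 count, while the other 12 tumors scatter around it at 0.734 to 1.88 times.

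Markers of lymphocytes were high in the same tumors as Cxcl9 and Cxcl10. The 8 T cell markers (Cd3d, Cd3e, Cd3g, Cd4, Cd8a, Cd8b1, Cd2 and Lck) summed to 34.4 to 63.8 TPM in lean tumors before therapy, 1.13 to 2.87 after ETS, 3.14 to 4.07 in obese tumors before therapy and 1.41 to 4.78 after ETS. Without Lck, the other 7 had 38 to 815 counts in each lean tumor before therapy and at most 34 in any other tumor, and 15 of 28 values in lean tumors after ETS, 13 of 28 in obese tumors before therapy and 7 of 28 after ETS were 0. The 6 NK cell markers (Ncr1, Klrb1c, Nkg7, Prf1, Gzmb and Klrk1) summed to 45.3 to 89.4 TPM in lean tumors before therapy, 0.459 to 1.65 after ETS, 0 to 0.752 in obese tumors before therapy and 0.746 to 5.37 after ETS. In the fit that kept genes with counts of 0, Ncr1, Nkg7, Gzmb and Klrk1 rose in obese tumors after ETS (edgeR adjusted p = 0.0419, 0.0275, 0.00132 and 0.0107), as did 1 of the 7 T cell markers other than Lck, Cd3e (0.0290). These calls rest on low counts. The NK cell markers had 0 to 10 counts in obese tumors before therapy and 0 to 80 after ETS. Cd3e had 0 counts in every obese tumor before therapy and 0, 2, 5 and 19 after ETS. Lck fell in obese tumors after ETS (log2 fold change -0.67, standard error 0.24, adjusted p = 0.0386). The part of these cells in the chemokine values was not tested.

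Ccl5, which T cells and many other cells make, did not fall in lean tumors. It was at 10.9, 16.3, 4.96 and 12.5 CPM in lean tumors before therapy and at 12.8, 14.7, 21.1 and 21.6 CPM after ETS. These groups overlapped, and Ccl5 was the only chemokine of the 10 with a value above 0 in lean tumors (log2 fold change 0.65, standard error 0.33, adjusted p = 0.116). Obese tumors had 0.951, 1.48, 0.887 and 0.653 CPM before therapy and 14.4, 14.2, 7.22 and 10.4 CPM after ETS. Every treated obese tumor lay above every untreated one, in a rise of 11.7-fold (log2 fold change 3.54, standard error 0.37, adjusted p = 2.16e-05). Before therapy Ccl5 was 11.3-fold lower in obese than in lean tumors, again with no overlap (log2 fold change -3.49, standard error 0.37, adjusted p = 9.24e-06). After ETS the hosts overlapped, at a log2 difference of -0.60 (95% interval -1.30 to 0.09, adjusted p = 0.263). In lean tumors after ETS, Ccl5 thus stood beside T cell markers with at most 34 counts (Lck aside).

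Ccl2, Ccl7, Ccl12 and Ccl8, which lie along chromosome 11 in this order, all rose in obese tumors, and Ccl2 and Ccl7 also fell in lean tumors. Ccl11, which lies between Ccl7 and Ccl12, was outside the tested genes for its counts of 0. In the fit that kept such genes, Ccl11 was not called in obese (edgeR adjusted p = 0.0646) or lean tumors (0.261). Ccl2 was at 16.8, 18.5, 9.63 and 13.4 CPM in lean tumors before therapy and 7.199, 7.11, 3.63 and 2.45 CPM after ETS, a fall without overlap (log2 fold change -1.52, standard error 0.46, adjusted p = 0.0152). In obese tumors it was at 3.35, 3.87, 1.83 and 1.09 CPM before therapy and 19.4, 11.3, 4.89 and 17.95 CPM after ETS, a rise of 5.29-fold without overlap (log2 fold change 2.40, standard error 0.48, adjusted p = 0.00138). Treated obese tumors 1, 2 and 4 reached or passed the lowest untreated lean tumor, and tumor 3 lay below it.

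Ccl7, which shares the receptor CCR2, was at 14.7, 17.5, 6.92 and 8.52 CPM in lean tumors before therapy and 4.94, 4.095, 2.005 and 1.35 CPM after ETS (log2 fold change -1.94, standard error 0.49, adjusted p = 0.00542). The obese tumors were at 2.52, 2.13, 1.05 and 0.8301 CPM before therapy and 13.96, 8.11, 4.32 and 14.3 CPM after ETS (log2 fold change 2.64, standard error 0.51, adjusted p = 0.00111). The groups of either comparison did not overlap. The centred log2 CPM of Ccl2 and Ccl7 differed by a root mean square of 0.25 over the 16 tumors, the smallest of the 45 pairs among the 10 chemokines, followed by Ccl2 with Ccl12 at 0.56 and Ccl7 with Ccl12 at 0.64. These values share each tumor's library and describe likeness only.

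Ccl12, the other mouse ligand of CCR2 in the cluster, was the least changed of them in lean tumors, at 3.14, 6.07, 2.33 and 2.65 CPM before therapy and 3.14, 4.04, 1.65 and 0.788 CPM after ETS (log2 fold change -0.57, 95% interval -1.62 to 0.49, adjusted p = 0.371). Its levels in obese tumors were 1.55, 1.85, 1.16 and 0.406 CPM before therapy and 7.76, 6.55, 3.68 and 9.05 CPM after ETS, a rise without overlap (log2 fold change 2.45, standard error 0.52, adjusted p = 0.00216). The log2 ratio of Ccl2 to Ccl12 TPM was 1.52 ± 0.37 in untreated and 0.62 ± 0.34 in treated lean tumors (SD, n = 4 each), with an exact two-sided permutation p = 0.0571. In obese tumors it was 0.49 ± 0.33 and 0.29 ± 0.38, with an exact permutation p = 0.429. Ccl12 was lower in obese than in lean tumors before therapy (log2 fold change -1.52, standard error 0.51, adjusted p = 0.0385), a call that was lost without lean tumor 2 before therapy (adjusted p = 0.138) and without obese tumor 1, 3 or 4 before therapy (0.0547, 0.0886 and 0.104), with a range of 0.00626 to 0.138 over all alternatives.

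Ccl8, which lies next to Ccl12, spread widely between tumors of a group and rose in obese tumors. Its levels were 24.5, 32.9, 5.596 and 15.7 CPM in lean tumors before therapy and 7.09, 14.1, 1.04 and 0.893 CPM after ETS. The groups overlapped and Ccl8 was not called (log2 fold change -1.77, standard error 0.91, adjusted p = 0.128), although it was without lean tumor 2 after ETS (adjusted p = 0.0446, with a range of 0.0246 to 0.2697 over all alternatives). Obese tumors were at 0.682, 8.32, 4.62 and 0.512 CPM before therapy and 25.9, 14.9, 23.6 and 63.7 CPM after ETS, a rise of 9.06-fold without overlap (log2 fold change 3.18, standard error 0.97, adjusted p = 0.01698). Before therapy the obese tumors were not called lower (log2 fold change -2.48, standard error 0.94, adjusted p = 0.06405), but were so without lean tumor 2 after ETS (0.0476) or obese tumor 2 before therapy (0.0314), with a range of 0.0242 to 0.149 over all alternatives. After ETS all 4 obese tumors lay above all 4 lean tumors, but the difference was not called (log2 fold change 2.47, standard error 0.93, adjusted p = 0.116).

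Cxcl16 and Cx3cl1 are the membrane-anchored members. Cxcl16 was at 21.4, 32.6, 12.6 and 21.7 CPM in lean tumors before therapy and 8.43, 7.67, 0.931 and 0.7703 CPM after ETS, a fall without overlap (log2 fold change -2.31, standard error 0.70, adjusted p = 0.0149). The treated lean tumors split, with tumors 1 and 2 near 8 CPM and tumors 3 and 4 under 1 CPM. Muscle markers summed to 257 and 188 TPM in tumors 1 and 2 and to 6.68 and 6.88 TPM in tumors 3 and 4, and monocyte and macrophage markers to 353 and 393 against 132 and 64.7 TPM, and the part of these cells in the split was not tested. In obese tumors Cxcl16 was at 1.51, 3.21, 1.34 and 0.706 CPM before therapy and 10.7, 3.01, 3.87 and 7.95 CPM after ETS (log2 fold change 1.92, standard error 0.71, adjusted p = 0.0412). The obese groups overlapped, and the rise lost its call without lean tumor 4 before therapy, without obese tumor 1, 3 or 4 before therapy, and without obese tumor 1 or 4 after ETS (adjusted p = 0.0511, 0.0833, 0.0986, 0.109, 0.116 and 0.0681). Over all alternatives the adjusted p ranged from 0.00498 to 0.116. Zmynd15, which shares exonic bases with Cxcl16, had 0 to 191 counts per tumor against 40 to 2121 for Cxcl16. In treated lean tumors 3 and 4, Cxcl16 had 52 and 44 counts beside 24 and 15 of Zmynd15. The ratio of Cxcl16 to Zmynd15 counts was 18.2, 12.8, 2.17 and 2.93 in treated and 9.56 to 16.5 in untreated lean tumors. The part of Zmynd15 reads in the low Cxcl16 values was not tested.

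Cx3cl1 had the lowest TPM of the 10 in every group mean. It was at 2.37, 5.103, 3.48 and 4.85 CPM in lean tumors before therapy and 2.42, 3.06, 1.99 and 1.803 CPM after ETS, with overlap and a call near the threshold (log2 fold change -0.77, standard error 0.30, adjusted p = 0.0460). The call was lost without lean tumor 2, 3 or 4 before therapy (adjusted p = 0.133, 0.0588 and 0.118), lean tumor 1, 3 or 4 after ETS (0.0634, 0.103 and 0.113), obese tumor 3 or 4 before therapy (0.0546 and 0.0550) or obese tumor 3 after ETS (0.0539), and the range over all alternatives was 0.00497 to 0.133. Obese tumors held 0.744, 1.48, 1.005 and 1.02 CPM before therapy and 4.71, 2.12, 3.38 and 2.96 CPM after ETS, a rise without overlap (log2 fold change 1.63, standard error 0.31, adjusted p = 0.000944). Before therapy all obese tumors lay below all lean tumors (log2 fold change -1.89, standard error 0.31, adjusted p = 0.000408).

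Cxcl12, the stromal ligand of CXCR4, was at 25.3, 27.4, 1.93 and 16.7 CPM in lean tumors before therapy and 8.001, 18.02, 2.67 and 8.11 CPM after ETS, which overlapped (log2 fold change -0.96, standard error 0.78, adjusted p = 0.334). Obese tumors were at 3.76, 8.87, 3.299 and 3.66 CPM before therapy and 16.1, 21.9, 12.99 and 116 CPM after ETS, a rise without overlap (log2 fold change 3.10, standard error 0.84, adjusted p = 0.00927). Obese tumor 4 after ETS stood apart, and without it the log2 fold change was 1.80 (adjusted p = 0.0460) and the difference between hosts was -2.80 and no longer called (adjusted p = 0.0544). That difference was also lost without obese tumor 3 or 4 before therapy (0.0518 and 0.0502), with a range of 0.00386 to 0.0681 over all alternatives. Before therapy Cxcl12 was not called between hosts (log2 fold change -1.87, standard error 0.80, adjusted p = 0.101), but was lower in obese tumors without lean tumor 3 before therapy (0.0392) or without obese tumor 4 after ETS (0.0390), with a range of 0.03897 to 0.222. In the same tumor the 6 fibroblast markers summed to 2116 TPM, against 544, 309 and 230 TPM in the other 3 treated obese tumors, and lean tumor 3 before therapy, with the lowest Cxcl12 of its group, had the lowest fibroblast sum of its group as well, 214 against 293 to 802 TPM. The part of fibroblasts in the Cxcl12 values was not tested.

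The make-up of the chemokine transcripts, compared per length in TPM, is given as a description. The 10 genes summed to 413 to 873 TPM in lean tumors before therapy, 105 to 145 TPM after ETS, 48.9 to 106 TPM in obese tumors before therapy and 194 to 574 TPM after ETS. The ranges of lean tumors after ETS and obese tumors before therapy overlapped, as did those of lean tumors before therapy and obese tumors after ETS, while the groups of each host did not overlap. Cxcl10 supplied 39.6% ± 11.4 of that sum in lean tumors before therapy (mean and SD, n = 4) and 13.2% ± 4.38 after ETS, whereas Ccl5 went from 7.66% ± 1.97 to 46.6% ± 20.5. In obese tumors Cxcl10 supplied 51.5% ± 25.4 before therapy and 8.55% ± 3.597 after ETS, whereas Ccl8 went from 14.6% ± 13.4 to 35.7% ± 8.62. The obese share of Cxcl10 rests on the values that were of like size to Art3. Cxcl10 was thus the leading chemokine by mean TPM in both hosts before therapy, Ccl5 in lean tumors after ETS and Ccl8 in obese tumors after ETS.

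**Figure D4:**
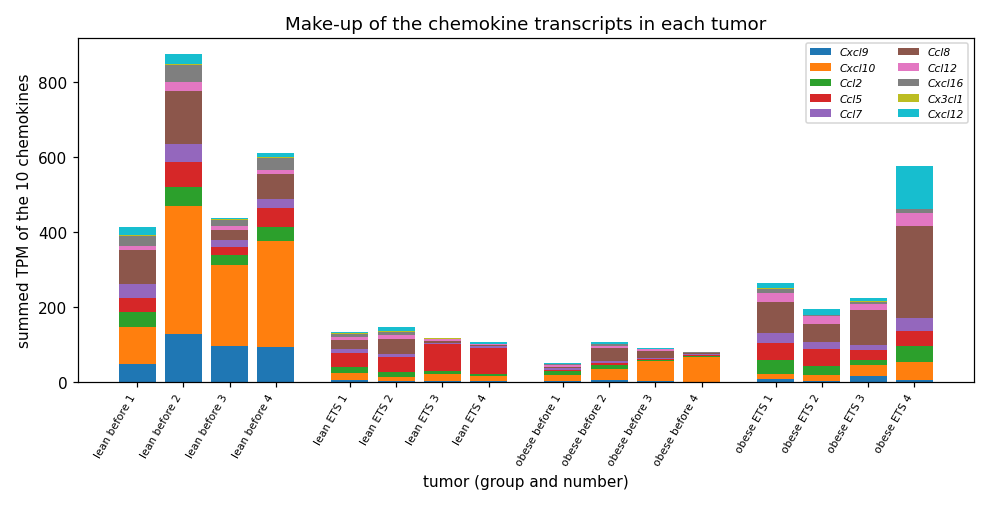
Summed TPM of the 10 chemokines (y axis) in each of the 16 tumors (x axis, by group and tumor number), with a color per gene. Lean tumors before therapy reach 413 to 873 TPM with large Cxcl10 and Cxcl9 parts, and obese tumors after ETS reach 194 to 574 TPM with a large Ccl8 part.

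In the order of mean TPM, most neighbouring genes were not apart. In lean tumors before therapy the order was Cxcl10, Cxcl9, Ccl8, Ccl5, Ccl2, Ccl7, Cxcl16, Cxcl12, Ccl12 and Cx3cl1, from 233.7 down to 2.73 TPM, and only the ranges of Ccl12 and Cx3cl1 did not overlap. In lean tumors after ETS it ran from Ccl5 at 55.5 TPM through Ccl8, Cxcl10 and Ccl2 to Cx3cl1 at 1.21 TPM, and all neighbours overlapped. In obese tumors before therapy it ran from Cxcl10 at 41.7 TPM through Ccl8 and Ccl2 to Cx3cl1 at 0.659 TPM, again with all neighbours overlapping. In obese tumors after ETS, Ccl8 at 118.5 TPM did not overlap Ccl5 at 39.1 TPM, and Ccl12 at 23.0 TPM did not overlap Cxcl16 at 7.46 TPM. The log2 ratio of Ccl5 to Ccl2 TPM in lean tumors was 0.13 ± 0.40 before therapy and 2.49 ± 1.13 after ETS (SD, n = 4), without overlap, where the exact permutation p = 0.0286 is the smallest possible and the adjusted p over 20 tests was 0.0571.

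Of 12 receptor genes, 7 had no count of 0 and were tested, and 6 of them are described here. Among these 6, Ccr1, Ccr2 and Cxcr4 fell in lean tumors, Ccr1, Ackr2 and Ackr3 rose in obese tumors, and Ccr1, Ccr2 and Ackr3 had a lower ETS effect in lean than in obese tumors. Ccr2, the monocyte receptor of CCL2, CCL7 and CCL12, had 2323, 2588, 925 and 1122 counts in lean tumors before therapy and 104, 73, 32 and 15 after ETS (log2 fold change -4.74, standard error 0.91, adjusted p = 0.000871). Obese tumors had 33, 158, 52 and 41 counts before therapy and 60, 40, 222 and 758 after ETS, and was not called (log2 fold change 1.79, standard error 0.82, adjusted p = 0.0924) while its 3 ligands rose. Ccr1, a receptor of CCL5 and CCL7, fell in lean tumors (log2 fold change -1.98, standard error 0.66, adjusted p = 0.0242) while Ccl5 did not, and rose in obese tumors (log2 fold change 2.37, standard error 0.67, adjusted p = 0.0118).

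Cxcr3, the receptor of CXCL9 and CXCL10, was at 5.98, 7.41, 5.21 and 7.93 CPM in lean tumors before therapy and 6.77, 6.69, 4.797 and 4.41 CPM after ETS, a log2 fold change of -0.23 with a 95% interval of -0.97 to 0.52. It was not called in any comparison, although both of its ligands fell in lean tumors, as did Lck (-2.61 on the log2 scale, adjusted p = 5.12e-06). Cxcr6, the receptor of CXCL16 on T cells, had 204, 392, 220 and 362 counts in untreated lean tumors, 7, 0, 0 and 6 in treated lean tumors, 2, 5, 0 and 0 in obese tumors before therapy and 0, 0, 7 and 4 after ETS. Cx3cr1 had 191, 276, 196 and 190 counts in lean tumors before therapy and at most 47 in any other tumor. Both stood outside the tested genes for their counts of 0, and in the fit without that exclusion both were lower in lean tumors after ETS (edgeR adjusted p = 0.000336 and 0.00473) and not called in obese tumors (0.870 and 0.20). In obese tumors after ETS, where Cxcl16 and Cx3cl1 rose, Cxcr6 had 0 to 7 counts and Cx3cr1 0 to 14.

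**Figure D5:**
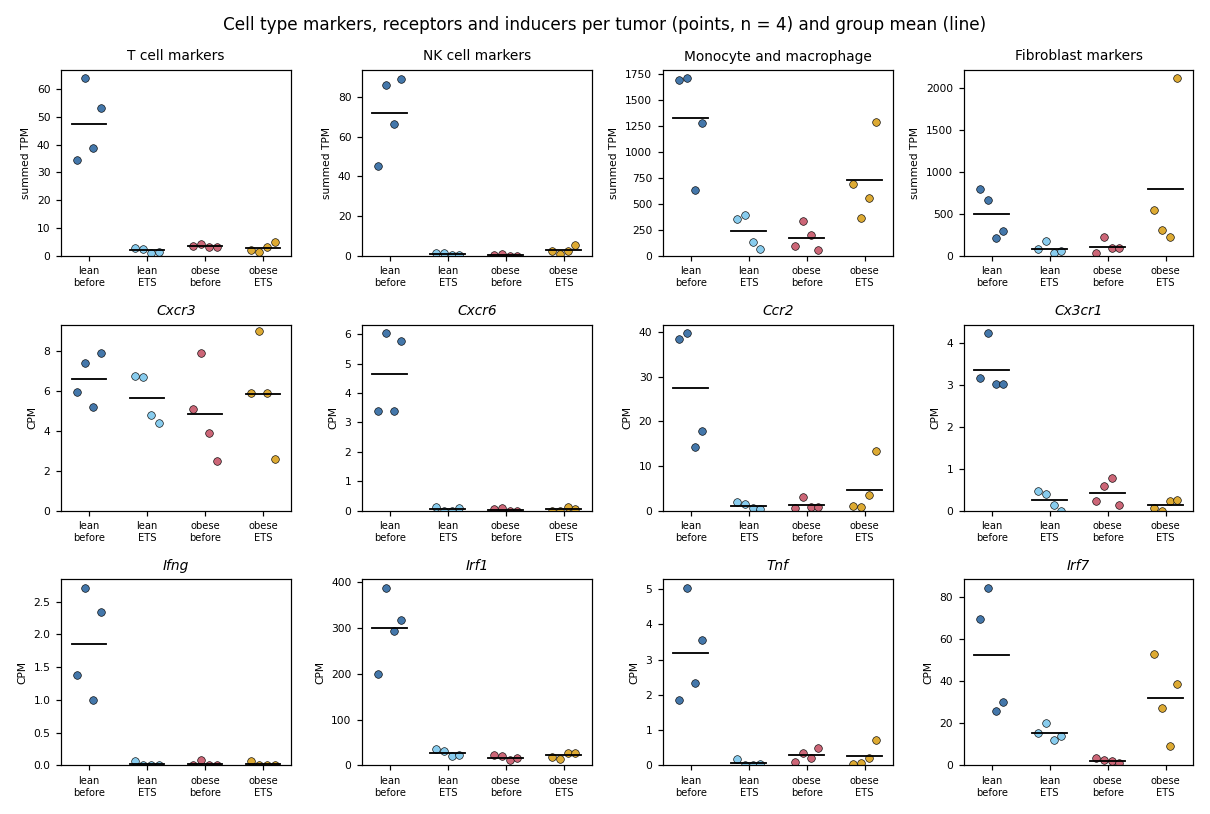
Summed TPM of marker lists (top row) and CPM of 4 receptors and 4 inducers (lower rows) by group, with a point per tumor, a line at the mean (n = 4) and linear axes from 0. T cell and NK cell markers, Cxcr6 and Ifng are near 0 outside lean tumors before therapy, whereas monocyte and macrophage markers, fibroblast markers and Irf7 are also high in obese tumors after ETS.

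Of the 11 genes that act upstream of chemokine transcription, 6 were tested and 5 are described here, of which Irf1, Irf7 and Nfkb1 fell in lean tumors. Ifng, the interferon that induces Cxcl9, had 83, 176, 65 and 147 counts in lean tumors before therapy and at most 4 in any other tumor, obese tumors after ETS included. Irf1, an interferon gamma response factor, was at 200.3, 387, 293 and 318 CPM in lean tumors before therapy and 35.4, 30.9, 19.7 and 23.2 CPM after ETS (log2 fold change -3.46, standard error 0.28, adjusted p = 1.47e-06), and was not called in obese tumors (log2 fold change 0.36, standard error 0.26, adjusted p = 0.294). Irf7, a factor of the type I interferon response, was at 3.41, 2.61, 2.08 and 1.18 CPM in obese tumors before therapy and 52.96, 27.5, 9.13 and 38.6 CPM after ETS, a rise without overlap (log2 fold change 3.79, standard error 0.52, adjusted p = 0.00011). Rela, a subunit of NF-kappa-B, also rose in obese tumors (log2 fold change 0.37, standard error 0.11, adjusted p = 0.0136). Irf3, a factor upstream of type I interferon, was lower in obese than in lean tumors before therapy (log2 fold change -0.40, standard error 0.12, adjusted p = 0.0209) and after ETS (log2 fold change -0.44, standard error 0.12, adjusted p = 0.0414), with no call for the ETS effect in either host. Tnf had 112, 327, 152 and 224 counts in lean tumors before therapy and at most 41 in any other tumor.

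Monocyte and macrophage markers moved with most of the chemokines in both hosts. The 10 markers (Cd68, Csf1r, Adgre1, Lyz2, Itgam, Ly6c2, Cd14, C1qa, C1qb and Mrc1) summed to 629 to 1709 TPM in lean tumors before therapy, 64.7 to 393 after ETS, 59.5 to 336 in obese tumors before therapy and 366 to 1290 after ETS. Of the 9 that were tested, 6 fell in lean tumors, 6 rose in obese tumors and 8 had a lower ETS effect in lean than in obese tumors. The shares of all tested genes called in these ways were 22.8%, 21.2% and 10.1%. The 6 fibroblast markers (Col1a1, Col1a2, Col3a1, Dcn, Lum and Pdgfra) summed to 214 to 802 TPM in lean tumors before therapy, 30.6 to 171 after ETS, 31.5 to 225 in obese tumors before therapy and 230 to 2116 after ETS, and 3 of 6 fell in lean while 6 of 6 rose in obese tumors. Of the 6 endothelial markers, 1 fell in lean and 6 rose in obese tumors. The 5 adipocyte markers (Adipoq, Plin1, Fabp4, Cidec and Retn) summed to 34.5 to 78.7 TPM in lean tumors before therapy, 19.5 to 38.9 after ETS, 38.8 to 231.8 in obese tumors before therapy and 191 to 566 after ETS. Only Fabp4 of these had no count of 0, and it rose in obese tumors (log2 fold change 1.53, standard error 0.49, adjusted p = 0.0227). After ETS it also exceeded its level in the lean hosts (log2 fold change 3.31, standard error 0.53, adjusted p = 0.00769). The 4 keratinocyte markers (Krt5, Krt14, Krt1 and Krt10) summed to 109.8 TPM in obese tumor 2 after ETS and to at most 3.41 TPM in any other tumor. The part of these cells in the chemokine values was not tested.

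Of 25 other chemokine genes, 10 were tested, of which 4 fell (Ccl3, Ccl4, Ccl22 and Cxcl11) and Ccl25 rose in lean tumors, while in obese tumors 4 rose (Ccl6, Ccl9, Ccl22 and Pf4). Over all tested genes, 22.8% were called lower and 21.0% higher in lean tumors, and 21.2% higher in obese tumors. Of these 10 chemokines, 6 had a lower ETS effect in lean than in obese tumors, as had 10.1% of all tested genes. Cxcl11, the third CXCR3 ligand, which the reference annotates as a transcribed pseudogene in this strain, fell in lean tumors like Cxcl9 and Cxcl10 (log2 fold change -3.22, standard error 0.66, adjusted p = 0.001396) and was not called in obese tumors (log2 fold change -0.55, standard error 0.59, adjusted p = 0.485). Ccl22, a chemokine of dendritic cells and macrophages, was lower in lean (log2 fold change -1.12, standard error 0.32, adjusted p = 0.0117) and higher in obese tumors after ETS (log2 fold change 2.72, standard error 0.37, adjusted p = 0.000105). After ETS Pf4, a platelet and macrophage chemokine, was the only one of the 10 called between hosts, higher in obese tumors (log2 fold change 3.27, standard error 0.74, adjusted p = 0.02505).

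Among 6 genes of chemokine-processing enzymes, 5 were tested. Adam17, one of the sheddases that release membrane-bound CX3CL1, fell in both hosts (log2 fold change -0.40, standard error 0.10, adjusted p = 0.006801 in lean and log2 fold change -0.36, standard error 0.10, adjusted p = 0.0125 in obese tumors). Adam10, the other sheddase of CX3CL1 and CXCL16, rose in obese tumors (log2 fold change 0.36, standard error 0.12, adjusted p = 0.0285) and was not called in lean tumors (log2 fold change -0.11, standard error 0.12, adjusted p = 0.474). Dpp4, a peptidase that trims the start of CXCL10 and CXCL12, fell in the lean (log2 fold change -2.97, standard error 1.09, adjusted p = 0.0381) and rose in the obese hosts (log2 fold change 3.23, standard error 1.17, adjusted p = 0.0388). Mmp2 rose in obese tumors (log2 fold change 3.08, standard error 0.56, adjusted p = 0.000717).

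For each chemokine, the 2 tested genes with the smallest root mean square difference of centred log2 CPM over the 16 tumors were named. Those of Cxcl9 were the interferon-responsive genes Serpina3g (0.61) and Iigp1 (0.78), and those of Ccl5 were Ifit1 (0.48) and Ifit3b (0.58), which type I interferon induces. Ccl2 was most like the macrophage gene Cd68 (0.39) and Arl4c (0.40), Ccl7 like Fermt3 (0.43) and Arl4c (0.44), and Ccl8 like the macrophage gene Siglec1 (0.48) and Igsf10 (0.58). Cxcl10 was most like Pla2g4c (0.54) and the T cell kinase gene Lck (0.60), Ccl12 like B3galnt1 (0.43) and Grrp1 (0.45), and Cxcl16 like Vav1 (0.41) and Lrrc25 (0.42), with Vav1 a signalling gene of blood cells. Cx3cl1 was most like Mertk (0.25), a receptor for dying cells on macrophages, and Ggta1 (0.31), and Cxcl12 like Il33 (0.50) and the matrix gene Mfap2 (0.65). With log2(TPM + 1) in place of log2 CPM, both genes stayed the same for Ccl5 alone.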

How the data were processed

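RNA of 16 B16F10 tumors was measured. Per the labels and the study's methods, TruSeq stranded mRNA libraries (101 bases, paired ends) were trimmed with Trimmomatic, aligned to mm10 with HISAT2 2.1.0 and quantified with StringTie 2.1.3b. The counts the authors deposited are whole numbers per gene without normalization, and the TPM values they deposited come from the same step. The deposited FPKM columns were not used. Whether counting used the read strand is not stated.

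Groups came from the genotype and therapy labels. Nothing states separate animals beyond the tumor numbers, so p-values measure the spread between these tumors. Following the study, 29568 genes that lacked reads in at least 1 tumor were left out. Counts were scaled by TMM and tested with edgeR 4.0.16 (R 4.3.3, quasi-likelihood, a mean per group over 16 tumors, Benjamini-Hochberg over 16209 genes). Standard errors follow from the fold change and the F statistic. Alternatives used DESeq2 1.42.0, limma 3.58.1 on log2(TPM + 1) and log2(TPM + 0.1), edgeR's exact test, other scalings and filters, a replicate block and each tumor left out. Leaving out the 4 tumors with over 100 TPM of muscle markers was added after the data were seen. Ratios of 2 genes were compared by exact permutation tests.

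The 10 chemokines and the gene lists were chosen with earlier results of these data known. Named genes are the chemokines, genes of the lists and, for each chemokine, the 2 genes outside the 10 most like it at a mean of at least 1 CPM. Art3 and the other overlapping genes, and Lep, were added after values were seen. Coordinates come from GRCm38.p6, and mm10 has the same coordinates. Total counts per tumor were 47199949 to 61655287, and the part of depth in the errors was not tested. A few genes of the lists are not reported here.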

Additional observations from a re-analysis of the deposited data

Results flagged for a closer look

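The change after ETS depended on the host for each of the 10 chemokines in edgeR's interaction test. The difference, lean minus obese on the log2 scale, was -7.46 for Cxcl9 (adjusted p = 0.00064), -4.95 for Ccl8 (0.0185), -4.58 for Ccl7 (0.000492), -4.23 for Cxcl16 (0.00892) and -4.05 for Cxcl12 (0.0236). It was -3.92 for Ccl2 (adjusted p = 0.001003), -3.01 for Ccl12 (0.00963), -2.89 for Ccl5 (0.000882), -2.82 for Cxcl10 (0.00597) and -2.40 for Cx3cl1 (0.00141). For 9 of them the lean value was below 0, and for 9 the obese value was above 0.

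Obese tumor 2 before therapy stood above the other 3 of its group for Cxcl12, at 8.87 against 3.30 to 3.76 CPM. Its gap to the nearest tumor was 0.868 of the group's range on the log2 scale, past Dixon's critical value for 4 tumors. It was the only such case in 60 groups of values, where chance alone marks about 1 in 20.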

How the results depend on the processing

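No chemokine turned direction in 1280 recomputed fold changes, of which 1208 kept their call, 31 lost it and 41 gained it. The count of called chemokines stayed between 5 and 7 for the lean and 7 and 9 for the obese hosts, 9 and 10 for the difference of the effects, and 7 and 9 before therapy. Between hosts after ETS it was 0, and became 1 with DESeq2's size factors, 3 with the exact test, 3 with DESeq2, 2 with limma on log2(TPM + 1), 1 with log2(TPM + 0.1), 3 with the replicate block and 1 without the muscle-rich tumors, and 0 to 2 with a tumor left out (1 without obese tumor 2 and 2 without obese tumor 3 after ETS). Without the muscle-rich tumors, Cxcl16 was higher in obese tumors after ETS by 3.11 (adjusted p = 0.0450) in place of 0.52, the Ccl8 fall in lean tumors (-3.97, adjusted p = 0.0365) and the Cxcl9 rise in obese tumors (2.38, 0.0322) gained a call, and Cx3cl1 in lean tumors (0.107), the Cxcl12 difference (0.0681) and Ccl12 before therapy (0.101) lost theirs. Of the lean tumors after ETS, that fit left out 1 and 2 and kept only 3 and 4, which had Cxcl16 at 0.931 and 0.770 CPM. The cause was not tested.

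Over all genes, 904 were called between hosts after ETS, against 450 with genes that lacked reads in some tumors kept, 1564 with the exact test, 2078 with DESeq2, 66 with only the groups compared, 1683 with the replicate block and 185 to 1340 with a tumor left out (483, 432, 236 and 185 without lean tumors 1 to 4 after ETS, and 243 without obese tumor 4 after ETS). Without the muscle-rich tumors the counts were 305 there, 2974 in lean tumors (from 7099) and 1494 for the difference (from 2660). With limma on log2(TPM + 1) in place of edgeR on counts, all genes shifted by a median log2 of -0.35 (lean), -0.094 (obese), -0.26 (difference), -0.13 (hosts before therapy) and 0.13 (hosts after ETS). The share of calls that were higher went from 48.0% to 15.7% in lean tumors, 38.7% to 9.24% in the difference, 51.0% to 29.0% before therapy and 58.7% to 83.8% after ETS. The unit, the test and the added constant changed together there. Whether tumors of the same replicate number were paired or handled together is not stated. Same-numbered tumors correlated at -0.112 to 0.452, and 5 of 16 correlated best with their own number. A batch shared by tumors of the same number was not tested. With the replicate block, Cxcl9 gained a call in obese tumors, Cx3cl1 lost its call in lean tumors and Ccl2, Ccl7 and Ccl12 gained one after ETS. The part of depth in the calls, beside the spread between 4 tumors, was not tested.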
